A study of Homo sapiens with 6 samples.

Results

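The MYC, MAX and MXD network was examined in RNA-seq libraries of HCCC9810, an established human cholangiocarcinoma (CCA) cell line labelled wild type. Its 10 members were taken by gene symbol from the deposited count table, and all 10 were found among its 19470 genes. They are MYC, MYCN, MAX, MXD1, MXI1, MXD3, MXD4, MNT, MLX and MGA. Cells received isolinderalactone (ILL), a plant sesquiterpene lactone, at 20 μM for 24 h, or DMSO vehicle for 24 h (control), with 3 libraries per group. The comparison asks how this network differed between ILL-treated and control cells of 1 cell line at 1 dose and 1 time. The labels do not say whether the 3 libraries of a group came from separate cultures, so p-values measure the spread between these libraries, which may be technical.

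MYC is a transcription factor that drives growth and proliferation genes, and it binds DNA as a heterodimer with MAX at the E-box. MXD proteins and MNT compete for MAX, bind the same element and recruit the SIN3 histone deacetylase corepressor, so they oppose MYC at shared promoters. MGA also pairs with MAX and scaffolds the Polycomb complex PRC1.6, while MLX is a MAX-like partner that joins MXD1, MXD4, MNT and the glucose-sensing Mondo proteins. MXD1, MXI1 and MXD4 are known from cells that stop dividing and differentiate, MXD3 from S phase of cycling cells, and MNT from both dividing and resting cells.

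The palindromic E-box, CACGTG, is shown first because it is the element that the dimers of this network share. Promoter windows of 300 bases, from 250 bases before to 50 bases after each RefSeq transcription start on GRCh38.p14, matched 9 of the 10 members. MYC had no window, so its promoter was not searched. The hexamer reads the same on both strands, so 1 search covers both. It lay in windows of 3 members, MXD4, MNT and MLX, at 238, 193 and 50 bases before the start, and each of these members rose with ILL. MXD1 and MXI1, which also rose, MXD3, MYCN and MGA, which fell, and MAX did not hold these 6 letters in the windows searched. The 250 bases before the start are printed 5′ to 3′ on the gene's strand with the E-box in capitals, for MXD4 at chr4:2262110-2262359 (minus strand), MNT at chr17:2401061-2401310 (minus strand) and MLX at chr17:42566850-42567099 (plus strand).
MXD4: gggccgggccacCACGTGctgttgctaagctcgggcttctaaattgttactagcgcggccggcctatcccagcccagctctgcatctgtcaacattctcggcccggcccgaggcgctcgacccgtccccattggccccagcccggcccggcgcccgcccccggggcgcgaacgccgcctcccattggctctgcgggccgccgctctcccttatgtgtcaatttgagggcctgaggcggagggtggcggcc
MNT: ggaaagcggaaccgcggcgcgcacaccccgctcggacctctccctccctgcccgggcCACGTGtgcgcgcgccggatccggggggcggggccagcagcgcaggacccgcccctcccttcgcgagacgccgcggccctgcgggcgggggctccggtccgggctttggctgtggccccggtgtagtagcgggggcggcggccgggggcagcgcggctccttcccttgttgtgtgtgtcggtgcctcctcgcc
MLX: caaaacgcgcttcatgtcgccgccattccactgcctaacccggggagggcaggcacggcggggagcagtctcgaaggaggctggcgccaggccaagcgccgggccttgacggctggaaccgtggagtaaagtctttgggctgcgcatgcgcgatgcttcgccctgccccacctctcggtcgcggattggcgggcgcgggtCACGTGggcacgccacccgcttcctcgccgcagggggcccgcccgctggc
Of all 35116 promoter windows, 7.26% held the hexamer, and of the 10482 tested genes with a window, 12.3% did. A match is a description of the letters and shows no binding in these cells.

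Libraries held between 34282764 and 37758569 counts. Of the biliary epithelial markers, KRT19, KRT7, KRT8, KRT18, EPCAM, SOX9 and CDH1 were detected. The summed level of the biliary list was between 9275 and 9468 CPM (counts scaled to library size) in controls and between 9302 and 9818 CPM with ILL. The hepatocyte, fibroblast and endothelial lists summed to at most 45.9, 16.5 and 1.88 CPM in any library. The immune list summed to between 38.3 and 42.4 CPM in controls and between 111 and 115 CPM with ILL, of which most was CD68, a lysosomal protein also made by epithelial cells, while CD3E had 3 or fewer counts throughout and PTPRC at most 9. The part of the immune list in the results below was not tested.

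With ILL, transcripts of MYC, MYCN, MXD3 and MGA fell, and those of MXD1, MXD4, MNT, MXI1 and MLX rose, while MAX did not pass the test. The largest changes lay among the MXD genes, in both directions. In the test across all 13066 genes with enough counts (edgeR's quasi-likelihood test), 9 of the 10 members had a Benjamini-Hochberg adjusted p under 0.05, 5 higher and 4 lower with ILL. Of all tested genes 73.1% passed, 36.2% higher and 36.9% lower, so the share of members that passed is not far from that of all genes. Differentially expressed genes (DEGs), with a fold change above 2 or under 0.5 in addition, made up 6 of the 10 members and 23.9% of all tested genes. Of these 6 DEGs, 4 were higher and 2 lower with ILL, against 12.5% and 11.4% of tested genes. The groups did not overlap in CPM for 9 members, and for 75.4% of tested genes. Members' log2 fold changes ran from -2.84 to 2.29 with a median of 0.18, beside a median of -0.0012 over all tested genes. In bulk libraries, fewer cells of a type and less RNA per cell cannot be told apart.

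**Figure D1:**
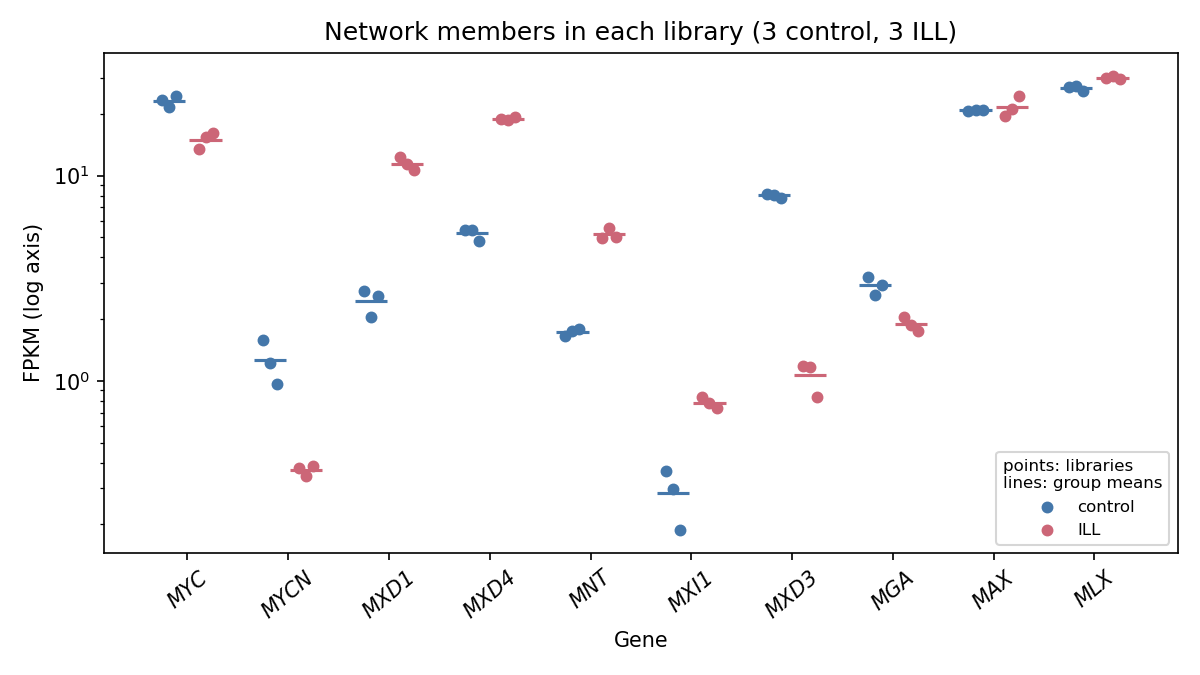
FPKM (reads scaled by gene length and library total, log axis) of the 10 members, with 1 point per library (blue, 3 control; red, 3 ILL) and a line at each group mean. The red points lie above the blue for MXD1, MXD4, MNT, MXI1 and MLX and below them for MYC, MYCN, MXD3 and MGA, while the groups overlap for MAX.

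MYC, the principal driver of the network, is annotated in GENCODE release 29 on chromosome 8 of GRCh38 from 127735434 to 127741434. Its level was 103, 95.2 and 108 CPM in control replicates 1 to 3 and 61.9, 71.6 and 74.4 CPM in ILL replicates 1 to 3. Every ILL library lay under every control library. The group means were 102 ± 6.46 CPM (SD, n = 3) in controls and 69.3 ± 6.57 CPM (SD, n = 3) with ILL. MYC fell by 0.56 in log2 units (standard error, SE, of 0.07, edgeR adjusted p = 7.1e-08), a 1.47-fold decrease that did not reach the DEG cutoff. The decrease of MYC was thus smaller than that of several genes around it, and its log2 fold change was at percentile 23.2 of all tested genes.

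MYCN, the neuronal MYC paralog, on chromosome 2 from 15940564 to 15947007, was far less abundant. It had 156, 110 and 88 counts in control libraries and 35, 32 and 36 counts in ILL libraries, with no overlap. MYCN fell by 1.70 on the log2 scale (SE 0.31, edgeR adjusted p = 2.6e-05), which is a 3.25-fold decrease. With limma on log2 of FPKM plus 1, a scale that compresses low genes, the value was -0.71, which passed the test but was no DEG. MYCL, the third paralog and no member, had 59, 71 and 36 counts in controls and 72, 83 and 81 with ILL. Its log2 fold change was 0.57 (SE 0.32, edgeR adjusted p = 0.115), and without control replicate 2 it was 0.82 with an adjusted p of 0.0461 from the same edgeR test. On the FPKM scale, which divides by gene length, MYC made up 93.6% ± 1.56 of the summed MYC family in controls and 94.8% ± 0.29 with ILL (SD, n = 3).

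MAX, the shared partner, on chromosome 14 from 65006174 to 65102695, was at 64.2, 65.0 and 65.0 CPM in controls and 63.6, 68.9 and 79.3 CPM with ILL. The groups overlapped, and ILL replicate 3 stood above the others. The coefficient of variation was 0.74% among controls and 11.3% among ILL libraries. Its log2 fold change was 0.13 (SE 0.07, edgeR adjusted p = 0.109). Without ILL replicate 1 it was 0.20 and passed (edgeR adjusted p = 0.0192), and without ILL replicate 3 it was 0.035.

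Of the MAX-binding repressors, MXD1, which is known to rise in terminal differentiation, had the largest increase. It is annotated on chromosome 2 from 69897688 to 69942945. The gene was at 14.8, 11.1 and 14.1 CPM in controls and 69.8, 65.0 and 60.7 CPM with ILL. All 3 ILL libraries lay above all controls, with a log2 fold change of 2.29 (SE 0.09, edgeR adjusted p = 3.1e-17), a 4.89-fold increase. Its exons share 237 annotated bases with SNRNP27 on the same strand, which had between 1105 and 1455 counts in every library.

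MXD4, on chromosome 4 from 2247432 to 2262294, was at 20.5, 20.5 and 18.3 CPM in controls and 74.9, 74.4 and 76.5 CPM with ILL. The groups were well apart and the ILL libraries were close together, with a coefficient of variation of 1.48%. The log2 fold change of MXD4 was 1.93 (SE 0.07, edgeR adjusted p = 6.7e-18). MNT, the widely expressed antagonist of MYC, on chromosome 17 from 2384060 to 2401118, had control levels of 14.8, 15.7 and 16.1 CPM. With ILL it was at 46.5, 52.5 and 47.2 CPM, again without overlap. This was a log2 fold change of 1.65 (SE 0.08, edgeR adjusted p = 1.7e-15).

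MXI1, also called MXD2, on chromosome 10 from 110207605 to 110287365, was the least abundant of the repressors in controls. Its counts were 53, 39 and 25 in controls and 114, 106 and 102 with ILL. Every ILL library was above every control, although the controls spread widely, with a coefficient of variation of 31.3%. The log2 fold change was 1.53 (SE 0.31, edgeR adjusted p = 0.00012) and 0.48 with limma on log2 of FPKM plus 1, where it passed the test but was no DEG.

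MXD3 moved against the other MXD genes. It is annotated on chromosome 5 from 177301461 to 177312757, and was at 21.9, 21.7 and 21.2 CPM in controls and 3.34, 3.31 and 2.37 CPM with ILL. The coefficient of variation was 1.69% among the control libraries, and all ILL libraries were far under the controls. MXD3 fell by 2.84 on the log2 scale (SE 0.13, edgeR adjusted p = 1.3e-15), a 7.18-fold decrease and the largest change among the members in either direction. Proliferation markers moved with it. All 10 of that list were DEGs lower with ILL, from -3.55 for TOP2A to -2.41 for PCNA on the log2 scale with a median of -3.16, against 11.4% of tested genes. The part of cell cycle position in the MXD3 decrease was not tested. MXD3 exons share 1158 annotated bases with PRELID1 on the opposite strand and 926 with RAB24 on the same strand, and whether counting used strand is not given in the sources used here. PRELID1 had between 8385 and 9182 counts in controls and between 4685 and 4828 with ILL, and RAB24 between 442 and 524 in controls and between 611 and 654 with ILL.

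MGA, the largest protein of the network, on chromosome 15 from 41621224 to 41773081, was at 37.6, 30.8 and 34.5 CPM in controls and 25.1, 23.1 and 21.5 CPM with ILL. The groups did not overlap. MGA fell by 0.56 in log2 (SE 0.09, edgeR adjusted p = 2.4e-06), a size close to that of MYC. MLX, on chromosome 17 from 42567068 to 42573239, was at 62.0, 62.8 and 60.1 CPM in controls and 71.6, 74.7 and 71.4 CPM with ILL. The increase was small, a log2 fold change of 0.24 (SE 0.06, edgeR adjusted p = 0.00101), yet larger than the spread in either group. MLX exons share 770 annotated bases with PSMC3IP on the opposite strand, which had between 581 and 660 counts in controls and between 87 and 148 with ILL.

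**Figure D2:**
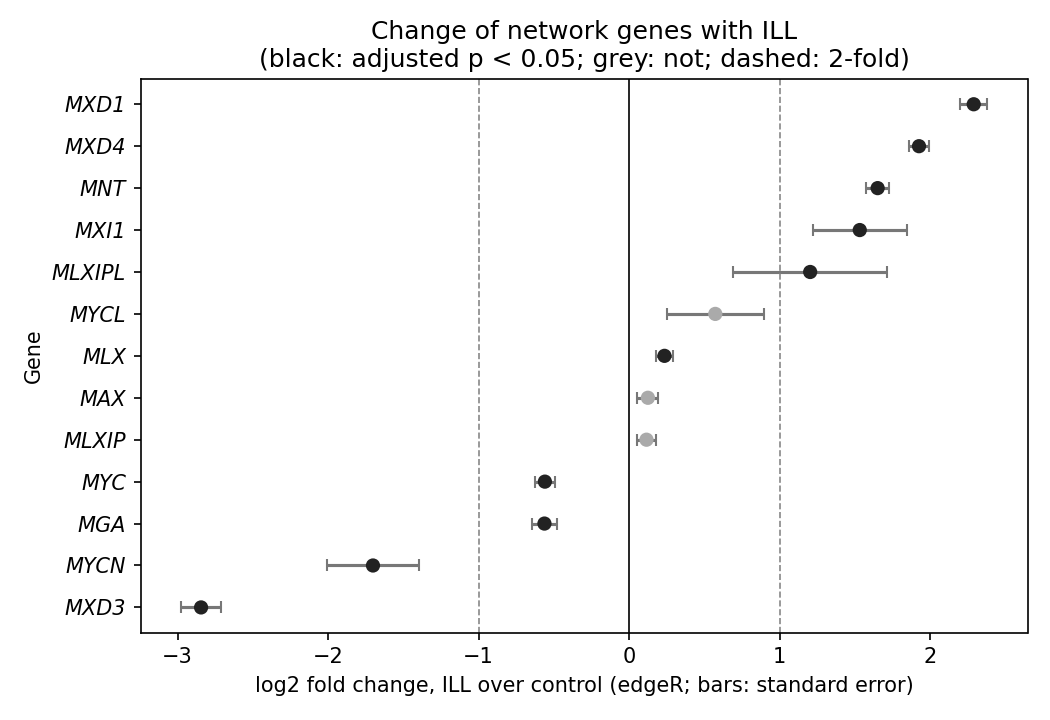
log2 fold change of ILL over control for the 10 members and for MYCL, MLXIP and MLXIPL from edgeR, with bars of 1 standard error; black points have an adjusted p under 0.05, grey points do not, and dashed lines mark a 2-fold change. MXD1, MXD4, MNT, MXI1 and MLXIPL lie to the right of the upper line and MYCN and MXD3 to the left of the lower, with MYC and MGA between the lines at -0.56.

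Levels of different genes were set side by side per length, in FPKM, where the order of the members changed with ILL. In controls the order was MLX at 26.7 ± 0.71 FPKM, MYC at 23.1 ± 1.41, MAX at 20.8 ± 0.099, MXD3 at 8.01 ± 0.17, MXD4 at 5.24 ± 0.36, MGA at 2.92 ± 0.30, MXD1 at 2.46 ± 0.36, MNT at 1.73 ± 0.066, MYCN at 1.26 ± 0.31 and MXI1 at 0.283 ± 0.090 FPKM (SD, n = 3). MGA and MXD1 overlapped between libraries, and the other neighbours in this order did not. With ILL the order was MLX at 30.0 ± 0.62 FPKM, MAX at 21.7 ± 2.41, MXD4 at 19.0 ± 0.32, MYC at 15.0 ± 1.36, MXD1 at 11.5 ± 0.84, MNT at 5.18 ± 0.32, MGA at 1.89 ± 0.15, MXD3 at 1.06 ± 0.19, MXI1 at 0.783 ± 0.046 and MYCN at 0.368 ± 0.021 FPKM (SD, n = 3). No neighbours in the second order overlapped. By the deposited FPKM, MXD4 thus passed from a level under that of MYC to one above it, in all 3 ILL libraries. These FPKM imply lengths of 4518 bases for MYC and 3871 for MXD4. The annotated exons in GENCODE cover 3001 bases for MYC and 7058 for MXD4, which would raise MYC and lower MXD4. The place of MXD4 above MYC may therefore not hold with annotated lengths, and neither order was recomputed with them. In CPM, which are not divided by length, 2 members kept their rank in controls and 5 with ILL.

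The summed FPKM of MYC, MYCN and MYCL was 25.4, 23.3 and 25.5 in control libraries and 14.2, 16.2 and 16.9 in ILL libraries. Over the same libraries the summed FPKM of MXD1, MXI1, MXD3, MXD4 and MNT was 18.4, 17.6 and 17.2 in controls and 38.3, 37.5 and 36.6 with ILL. With the deposited gene lengths, the MYC family exceeded the repressors in every control library and was under them in every ILL library. The ratio of the first sum to the second was 1.38, 1.32 and 1.49 in controls and 0.371, 0.432 and 0.463 with ILL, and library scaling cancels in it. On the log2 scale the ratio was lower with ILL by 3.32-fold, with an exact two-sided permutation p of 0.1, the smallest that 3 libraries against 3 allow. The ratio of MYC to MAX was 1.13, 1.03 and 1.17 in controls and 0.684, 0.731 and 0.660 with ILL, again without overlap and with the same smallest exact permutation p of 0.1. These are ratios of transcripts, and proteins of the network were not analysed here.

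The makeup of the repressor sum also differed between groups, with no test run on the shares. MXD3 held 45.2% ± 0.74 of it in controls and 2.83% ± 0.47 with ILL (SD, n = 3). MXD4 held 29.5% ± 1.45 in controls and 50.7% ± 1.80 with ILL, and MXD1 held 13.9% ± 1.90 and 30.6% ± 1.52 (SD, n = 3). MNT was at 9.78% ± 0.70 in controls and 13.8% ± 0.92 with ILL, and MXI1 at 1.59% ± 0.46 and 2.09% ± 0.074 (SD, n = 3). By the deposited FPKM, the most abundant repressor transcript was therefore MXD3 in every control library and MXD4 in every ILL library. All MAX partners together, with MGA, came to 2.18 ± 0.095 times the FPKM of MAX in controls and 2.56 ± 0.26 times with ILL (SD, n = 3), and the lowest ILL library, at 2.27, was just above the highest control, at 2.26.

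**Figure D3:**
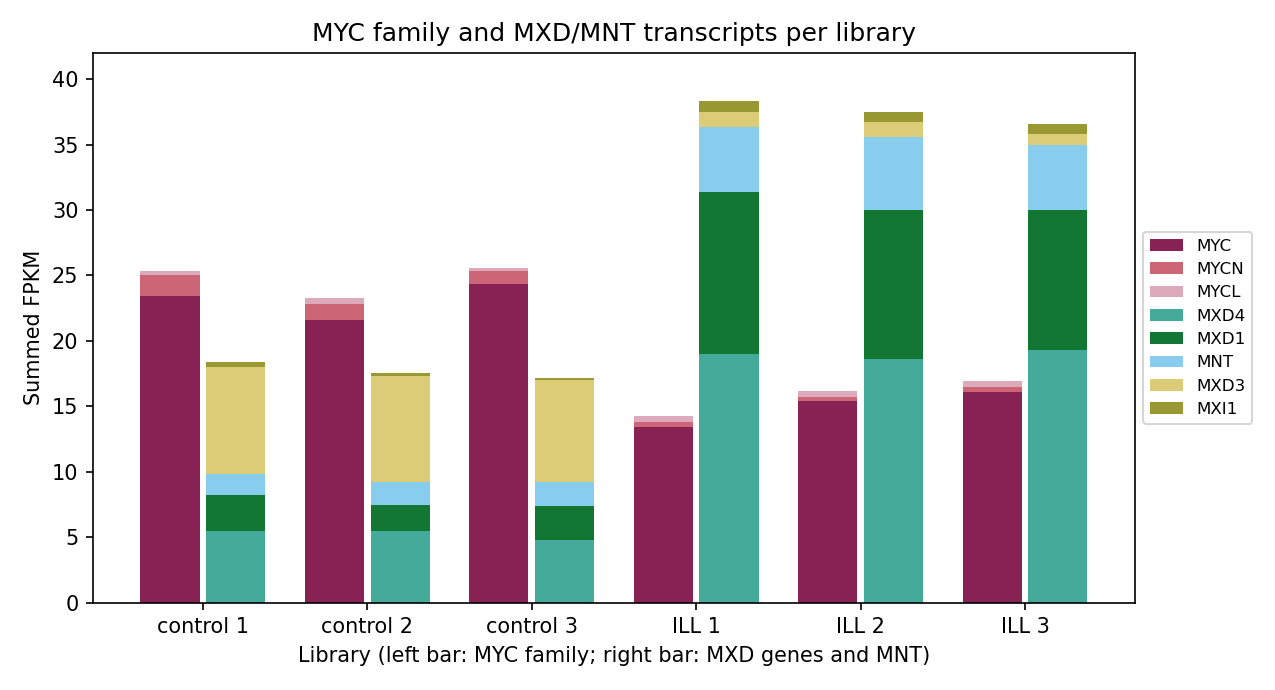
Summed FPKM per library, with MYC, MYCN and MYCL stacked in the left bar and MXD4, MXD1, MNT, MXD3 and MXI1 in the right bar of each pair, and the axis starting at 0. The left bar is the taller in the 3 control libraries and the right bar in the 3 ILL libraries, where the MXD3 segment is nearly gone and those of MXD4 and MXD1 are largest.

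The Mondo partners of MLX differed in level. MLXIP (MondoA) was at 48.0 ± 1.58 CPM in controls and 52.0 ± 2.08 CPM with ILL (SD, n = 3), with a log2 fold change of 0.12 (SE 0.06, edgeR adjusted p = 0.110). MLXIPL (ChREBP) was near the detection limit, at 12, 10 and 15 counts in controls and 22, 21 and 39 counts with ILL. Its log2 fold change of 1.20 (edgeR adjusted p = 0.0379) was 0.86 without ILL replicate 3 and then did not pass (adjusted p = 0.220). It also did not pass without ILL replicate 1 or without any single control replicate, with adjusted p between 0.0501 and 0.112. Of 6 tested genes known as targets of these dimers, 2 rose and 4 fell, beside 36.2% and 36.9% of all tested genes, with a median of -0.65. TXNIP, the arrestin-like inhibitor of thioredoxin and the classic MondoA target, rose from 250 ± 0.42 to 625 ± 11.6 CPM (SD, n = 3), and its relative ARRDC4 had a log2 fold change of 0.77. FASN and ELOVL6, enzymes of fatty acid synthesis and elongation, fell by 1.44 and 1.24 on the log2 scale, and PKLR had too few counts to be tested.

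Among genes known as activated by MYC, 33 of 37 fell and 2 rose, beside 36.9% and 36.2% of all tested genes. Of these, 21 were DEGs lower with ILL and none was a DEG higher, beside 11.4% and 12.5% of all tested genes. The list's median log2 fold change was -1.16. TFAP4, itself an E-box factor, fell by 2.16 (SE 0.13, edgeR adjusted p = 8.8e-14), at 856, 925 and 872 counts in controls and 157, 223 and 186 with ILL. NOLC1, a nucleolar phosphoprotein, fell by 1.76. The 2 that rose were SHMT2, the mitochondrial serine hydroxymethyltransferase, with a log2 fold change of 0.66, and BCAT1, a branched-chain aminotransferase, with 0.39, while HK2 and TERT did not pass. The list was written from general knowledge with earlier results of these data known, and proliferation markers fell in the same libraries, whose part in this count was not tested.

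Of the 29 listed MYC-activated genes with a promoter window, 18 held the E-box, which is 62.1% beside 12.3% of tested genes with a window. The list holds genes known as activated by MYC, which binds the E-box, so the choice of list may itself raise this share. The median was -1.10 in log2 over the 18 genes with the E-box and -1.21 over the 11 without it. Within the list the hexamer thus did not separate larger from smaller decreases. It was also present in the windows of HK2, TERT and BCAT1, which did not fall, at log2 fold changes of -0.0060, 0.36 and 0.39. Stretches of 30 bases around the E-box (in capitals) are printed for 6 genes of the list that were DEGs lower with ILL, chosen after their values were seen to show the shared core between unlike flanks. They are FBL (fibrillarin) at chr19:39846356-39846385, MRTO4 (a ribosome assembly factor) at chr1:19251807-19251836, SRM (spermidine synthase) at chr1:11060200-11060229, CDK4 (a G1 kinase) at chr12:57752394-57752423, and the chaperonin pair HSPE1 and HSPD1, which share 1 site between divergent starts at chr2:197500345-197500374 and are read on opposite strands. The sites of FBL and MRTO4 lie just after the start and the others before it. FBL, SRM, CDK4 and HSPD1 are on the minus strand and MRTO4 and HSPE1 on the plus strand.
FBL: tgcgctcttttcCACGTGcgaaagccccgg
MRTO4: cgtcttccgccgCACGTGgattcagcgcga
SRM: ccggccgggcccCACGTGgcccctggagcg
CDK4: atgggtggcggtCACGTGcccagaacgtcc
HSPE1: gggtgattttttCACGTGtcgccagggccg
HSPD1: cggccctggcgaCACGTGaaaaaatcaccc
Their log2 fold changes were -1.70 for FBL, -1.66 for MRTO4, -1.65 for SRM, -1.52 for CDK4, -1.55 for HSPE1 and -1.47 for HSPD1. CDK4 held 3 such sites in its windows, of which the 1 nearest the start is shown.

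Among genes known as repressed by MYC, 6 of 8 tested rose and 1 fell, beside 36.2% and 36.9% of all tested genes, with a median log2 fold change of 1.01. NDRG1, a differentiation and stress gene, rose from 30.6 ± 5.97 to 527 ± 14.1 CPM (SD, n = 3), a log2 fold change of 4.11 (SE 0.09, edgeR adjusted p = 3.4e-22). CDKN1A, which encodes the cell cycle inhibitor p21, had a log2 fold change of 2.88. In contrast, THBS1 (thrombospondin 1) fell by 2.82. CDKN2B and GAS1 had too few counts to be tested, and NDRG2 did not pass. The repressed list, too, was written with earlier results of these data known. The part of MYC in these changes was not tested, nor was that of the fall in proliferation markers.

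Transcripts of most proteins that MYC and the MXD group recruit were lower with ILL. Of 14 MYC cofactor genes, 10 fell and 1 rose (36.9% and 36.2% of all tested genes), with a median log2 fold change of -0.34. The AAA+ ATPases RUVBL1 and RUVBL2 fell by 1.46 and 1.28 (edgeR adjusted p = 8.0e-16 and 1.6e-16), and the acetyltransferase KAT5 rose by 0.67. Of 12 corepressor genes, of the SIN3 complex and NCOR1, which belongs to a separate complex, 9 fell and 2 rose beside the same shares of all tested genes, with a median of -0.47. SAP30, a SIN3 subunit, had 484, 410 and 389 counts in controls and 81, 64 and 60 with ILL, with no overlap, and fell by 2.57 on the log2 scale (SE 0.17, edgeR adjusted p = 6.4e-13). The deacetylase HDAC2 fell by 0.86, while HDAC1 had a log2 fold change of -0.02 that did not pass, and SIN3B and NCOR1 rose by 0.31 and 0.73. By the DEG cutoff, 3 of the 14 cofactor genes and 1 of the 12 corepressor genes (SAP30) were lower with ILL, and 0 of either list were higher. Of all tested genes, 11.4% were DEGs lower and 12.5% DEGs higher. Thus the repressors MXD1, MXD4, MNT and MXI1 rose in libraries where most of the listed corepressor genes were lower, all but SAP30 by less than 2-fold.

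Of the 14 PRC1.6 genes, 8 fell and 3 rose, beside 36.9% and 36.2% of all tested genes, with a median of -0.70, and 3 of the genes (WDR5, HDAC1 and HDAC2) also stand in the lists of cofactors or corepressors. PCGF6, a subunit particular to this Polycomb complex, fell by 1.20 and TFDP1, the dimer partner of E2F proteins, by 1.14. The E3 ligase RING1 rose by 0.44 and RYBP by 0.29. Of 10 germ cell genes known as silenced by PRC1.6, 9 had too few counts to be tested. The remaining gene, STK31, had 54, 37 and 42 counts in controls and 66, 62 and 55 with ILL, a log2 fold change of 0.53 that did not pass (edgeR adjusted p = 0.160).

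Regulators of MYC itself included genes that rose and genes that fell. Of 14 genes acting on MYC protein turnover, 10 fell and 3 rose, beside 36.9% and 36.2% of all tested genes, with a median of -0.52. CIP2A, the phosphatase inhibitor that stabilizes MYC, fell from 111 ± 6.05 to 13.6 ± 1.21 CPM (SD, n = 3), a decrease of 3.03 on the log2 scale. The kinase AURKA, which is also a mitotic gene, fell by 2.83. TRIB3, a pseudokinase of the stress response, rose by 3.07 and GSK3B, the kinase that marks MYC for degradation, by 0.80 (edgeR adjusted p = 2.6e-12). Of 14 tested regulators of MYC transcription or mRNA, 7 fell and 4 rose, with a median of -0.06, which is close to those shares and to the median of all tested genes. E2F1 fell by 2.15 and HNRNPD (AUF1) by 0.97, while ZFP36, which promotes decay of AU-rich mRNAs, rose by 1.76 and STAT3 by 0.78, and LEF1 had too few counts. Of 7 tested other E-box factors, 5 rose and 2 fell, beside 36.2% and 36.9% of all tested genes, with a median of 0.26. The lysosomal regulators TFE3 and TFEB rose by 0.86 and 0.80, MITF and USF1 fell by 1.14 and 0.32, and TFEC had too few counts.

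**Figure D4:**
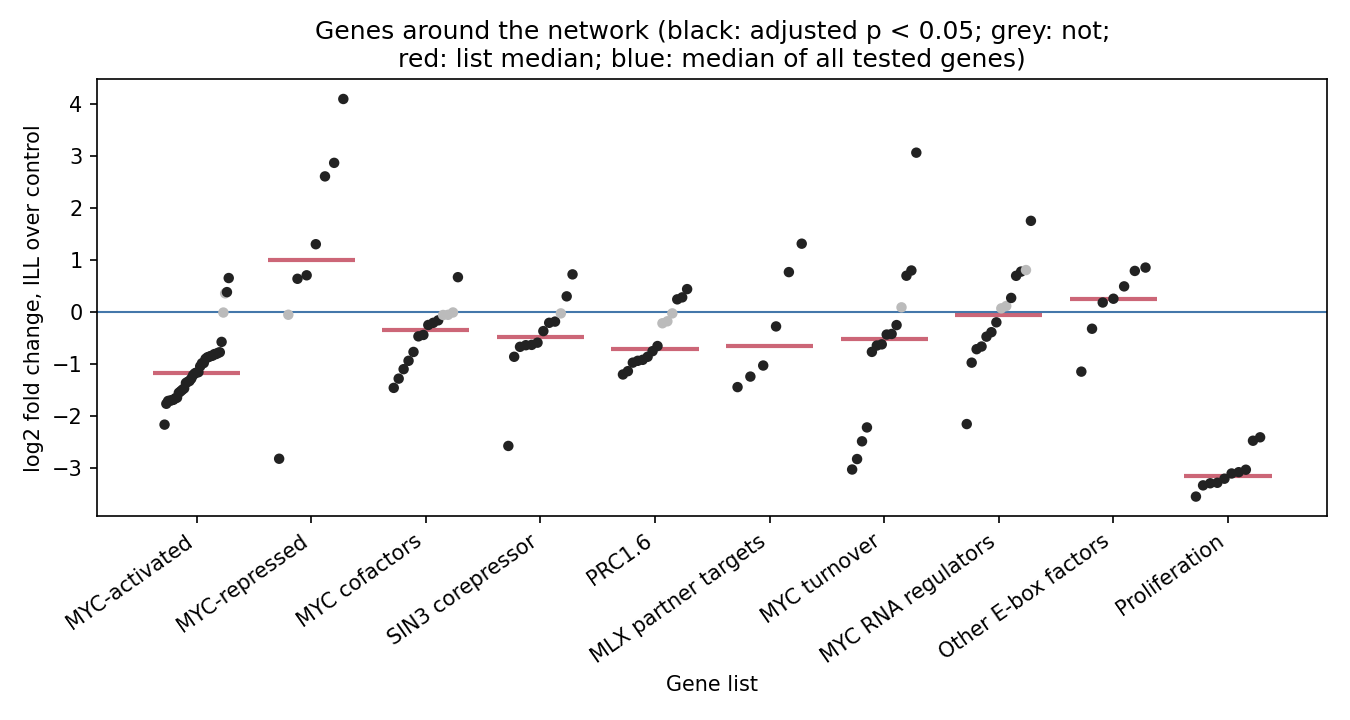
log2 fold change of ILL over control for each tested gene of 10 lists around the network (1 point per gene, ordered by value; black, adjusted p under 0.05; grey, not), with the list median in red and the median of all tested genes in blue. MYC-activated genes center on -1.16 and proliferation markers on -3.16, while MYC-repressed genes center on 1.01 with THBS1 far below the rest.

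The genes whose level followed that of MYC most closely over the 6 libraries were GALNT18, ZNF816-ZNF321P and TTF1, with Pearson's r of log2 CPM of 0.999, 0.998 and 0.998 among 12048 genes with a mean of at least 1 CPM. Of these genes, 37 had an r above 0.99. The 6 points fall into 2 groups of 3, so a clear drop between groups itself gives a high r, whatever its size. The pattern of libraries within the groups also enters r, and the values are given as a description. GALNT18 was at 10.2, 8.91 and 11.4 CPM in controls and 4.08, 5.11 and 5.40 CPM with ILL, and like MYC it was lowest in ILL replicate 1 and highest in control replicate 3.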

How the data were processed

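Total RNA of HCCC9810 cells was sequenced as Illumina mRNA libraries. The authors deposited raw counts per gene symbol and FPKM values, 1 column per library; 100% of 88055 nonzero FPKM values equal count over gene length and library total within 0.1%. The submitters' processing notes name GRCh38 and DESeq2, and the aligner and counter are not given in the sources used here. Counts were filtered with filterByExpr, normalized by TMM and tested with edgeR 4.0.16 (R 4.3.3) over all 13066 genes passing the filter, with 3 ILL and 3 control libraries and no block; a DEG had an adjusted p under 0.05 with a fold above 2 or under 0.5. Standard errors come from the quasi-likelihood F statistic. Alternatives used DESeq2 1.42.0 and limma 3.58.1 on log2(FPKM + 1) or log2(FPKM + 0.1). The edgeR fit was tested on simulated counts. Library totals were between 34282764 and 37758569, and the biological coefficient of variation of 0.0717 sets the precision of most genes. Chi-square tests of replicate pairs gave 5.15 to 11.8 per degree of freedom, above sampling noise, so no library is a copy of another. Members and hand-written lists were chosen with earlier results of these data known. Beyond the members, at most 2 genes at each end of a list were named among those that passed, did not overlap and had a mean of at least 1 CPM, together with the 3 genes most like MYC and, in full, the list of MYCL, MLXIP and MLXIPL. Other genes, such as those printed with a sequence and those that did not pass or were not tested, were named after their values were seen. Gene positions are from GENCODE release 29, and promoters from RefSeq on GRCh38.p14. Single values of some marker genes are not reported here.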

Additional observations from a re-analysis of the deposited data

How the results depend on the processing

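Of 146 values of the 10 members' log2 fold changes over the alternatives, 145 had the same sign and the same call. The exception was MAX, which passed without ILL replicate 1. Without 1 library each, the values lay between -0.61 and -0.48 for MYC, -1.86 and -1.51 for MYCN, 0.035 and 0.20 for MAX, 2.17 and 2.37 for MXD1, 1.31 and 1.76 for MXI1, -2.93 and -2.70 for MXD3, 1.87 and 1.95 for MXD4, 1.59 and 1.68 for MNT, 0.21 and 0.25 for MLX, and -0.64 and -0.49 for MGA. The count of members that were DEGs was 6 and became 9 without the fold change cutoff and 4 under each of the 3 limma settings. Those lower with ILL numbered 1 in place of 2 under those limma settings, and those higher numbered 3 in place of 4, since MYCN and MXI1 fell short of the FPKM filter or of the 2-fold cutoff. Of the 3 remaining network genes, MLXIPL alone passed. With no filter, DESeq2's Wald test or the replicate block 0 passed, and without 1 library 0 to 1 passed. Limma with a mean FPKM of at least 1 left out MYCL and MLXIPL at either pseudocount, so they were not tested there. MLXIP was tested under those settings and did not pass. With limma on log2(FPKM + 1), unfiltered, 1 PRC1.6 gene (in place of 3) and 1 germ cell gene (in place of 0) were higher, and with the FPKM filter 1 other E-box factor (in place of 2) was lower at both pseudocounts. The cause was not tested. In CPM, 2 members kept their FPKM rank in controls and 5 with ILL, which follows from the division by length. Replicate numbers did not pair the libraries, with correlations of same-numbered deviations of 0.0067, -0.020 and -0.060. With the replicate number as a block, MYC was at -0.56, MXD1 at 2.30 and MXD3 at -2.85, and the block changed the call of no member. The log2 ratio of the MYC family to the repressors differed by -1.73 and lay between -1.80 and -1.64 without 1 library. Scaling by library size alone moved the median of all genes to -0.07. MYCN, MXI1 and MLXIPL are limited by low counts.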
